A study of Mus musculus with 8 samples.

Results

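The regions described here are the broad H3K79me2 peaks of control cells that were over 5 kb and up to 20 kb wide on chromosomes 1 to 19. They numbered 6329 of 46767 autosomal control peaks, and of 47774 control peaks in all. They are called mid-width domains below. They were chosen by their width in the control peak list alone, so their width is a description and not a finding. The cells were germ cells cultured from testes of 7-day-old ROSA mice, strain B6.129S7-Gt(ROSA)26Sor/J, which carry a LacZ reporter active in all tissues. Clump-forming cells were expanded for 2 months over SNL 76/7 feeders in serum-free medium with GDNF at 10 ng/mL and FGF2 at 0.5 ng/mL. They were then kept for 7 days with 2 µM EPZ5676, an inhibitor of DOT1L, or with vehicle. The labels name the vehicle as DMSO in the protocols and as EtOH in the short descriptions of the control samples, and the conflict was not settled. Each condition had 2 H3K79me2 chromatin immunoprecipitation samples and 2 input samples, 8 samples in all. Only 1 peak list per condition was used here, so no value below has an error between replicates and no difference between conditions could be tested. No step to remove the feeder cells is named, and the strain, reporter, feeders and growth factors were shared by both conditions.

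H3K79me2 is dimethylation of lysine 79 in the globular part of histone H3, and DOT1L is the enzyme that places it. The mark follows RNA polymerase II into the body of transcribed genes. It is usually strongest in the part of the gene that follows the start, and its breadth goes with active transcription. DOT1L works together with the proteins AF9, AF10 and AF17, and AF9 also meets the super elongation complex that releases paused polymerase.

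The mid-width domains covered 60.91 Mb, or 36.58% of all autosomal bases under control peaks. Their median width was 8567 bp, with quartiles of 6395 and 11997 bp. Their fold enrichment, the authors' own value for each peak, ran from 2.083 to 9.846 with a median of 3.257. The median −log10 q, also the authors', was 6.671, from 1.507 to 61.18. At the lower limit, peaks of 5000 bp in Taldo1 (fold enrichment 5.344) and Wscd1 (2.625) fell just outside, and peaks of 5001 bp in Tor1b (3.513) and Slc43a1 (2.466) just inside. At the upper limit, peaks of 19982 bp in Lrrfip1 (3.648) and 19998 bp in Gtdc1 (3.037) fell just inside, and peaks of 20011 bp in Stk40 (5.077) and 20013 bp in Zfp385b (2.964) just outside. Chromosome X held 105 further control peaks of this width, not counted as members, and chromosome Y held 0. The EPZ5676 list held 9182 peaks and none on X or Y.

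The 6 promoters below show the sequence beside which such domains began. They are the 250 bases before a transcript start of the gene in the RefSeq annotation of GRCm38.p6 (mm10), printed 5′ to 3′ on the gene's strand. Capitals mark motifs found by their letters on either strand. The GC box, read by Sp1 and related factors, was searched as GGGCGG. The E-box, read by factors such as Myc and Usf1, was searched as CACGTG, the ETS core as CCGGAAGT and the CCAAT box by the letters of its name. The domains of Rnf126 and Pip5k1c were among those with the highest −log10 q. Those of Zbed3 and Itprip were among those with the most bases under EPZ5676 peaks. Those of Cct5 and Psmd12 had the highest −log10 q of domains in a protein-coding gene without an EPZ5676 peak.
Rnf126 (chr10:79766953-79767202, minus strand): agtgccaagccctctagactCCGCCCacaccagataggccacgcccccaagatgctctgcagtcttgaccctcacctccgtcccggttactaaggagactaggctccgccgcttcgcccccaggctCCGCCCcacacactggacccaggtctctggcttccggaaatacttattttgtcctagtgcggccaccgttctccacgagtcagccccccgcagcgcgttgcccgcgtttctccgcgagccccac
Pip5k1c (chr10:81292713-81292962, plus strand): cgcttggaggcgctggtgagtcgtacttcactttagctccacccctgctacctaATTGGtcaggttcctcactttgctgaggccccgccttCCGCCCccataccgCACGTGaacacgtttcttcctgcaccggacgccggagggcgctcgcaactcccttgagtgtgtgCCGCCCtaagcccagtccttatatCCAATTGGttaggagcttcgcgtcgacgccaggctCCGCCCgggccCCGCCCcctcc
Zbed3 (chr13:95326517-95326766, plus strand): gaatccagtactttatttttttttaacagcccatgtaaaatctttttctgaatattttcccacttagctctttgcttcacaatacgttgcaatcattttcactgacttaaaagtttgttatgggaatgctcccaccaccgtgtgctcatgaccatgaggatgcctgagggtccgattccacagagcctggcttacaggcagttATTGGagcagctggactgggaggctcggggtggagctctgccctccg
Itprip (chr19:47919324-47919573, minus strand): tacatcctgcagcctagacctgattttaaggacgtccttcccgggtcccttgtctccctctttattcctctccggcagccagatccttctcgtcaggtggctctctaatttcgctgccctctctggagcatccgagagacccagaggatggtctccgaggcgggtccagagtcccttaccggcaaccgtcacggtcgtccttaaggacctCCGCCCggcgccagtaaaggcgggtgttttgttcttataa
Cct5 (chr15:31601847-31602096, minus strand): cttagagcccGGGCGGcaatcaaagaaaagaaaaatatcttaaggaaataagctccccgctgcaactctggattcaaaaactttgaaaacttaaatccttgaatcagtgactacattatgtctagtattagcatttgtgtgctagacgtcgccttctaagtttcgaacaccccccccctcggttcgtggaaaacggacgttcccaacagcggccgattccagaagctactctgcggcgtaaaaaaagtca
Psmd12 (chr11:107479278-107479527, plus strand): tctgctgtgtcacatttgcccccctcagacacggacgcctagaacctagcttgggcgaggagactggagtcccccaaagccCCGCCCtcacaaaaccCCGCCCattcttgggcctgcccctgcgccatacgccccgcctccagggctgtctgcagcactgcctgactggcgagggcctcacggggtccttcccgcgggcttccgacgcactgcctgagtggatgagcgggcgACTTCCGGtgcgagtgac
The starts of Rnf126, Pip5k1c and Zbed3 used here lie inside the annotated gene span, not at its outer end, and that of Zbed3 is 1 of 3 in the table. In Pip5k1c a CCAAT box overlaps another on the opposite strand (CCAATTGG). The 5′ edge of the domain lay 175 bp after the start in Rnf126, 300 bp after it in Pip5k1c, 315 bp in Zbed3, 970 bp in Itprip and 66 bp in Cct5 (in Psmd12 it lay before the start, at -104 bp). The Zbed3 promoter held 5 CpG dinucleotides, against 14 to 21 in the other promoters printed here.

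Small RNA genes also lay under these domains. Of 919 autosomal miRNA hairpins in the RefSeq table, 63 lay inside 52 mid-width domains, and 154 lay inside a control peak of any width. The mature sequences below, from the RefSeq table on GRCm38.p6, are those of 2 seed families that recurred among these domains, a set picked after the values were seen. Let-7 miRNAs rise as stem cells differentiate, and miR-15 and miR-16 restrain the cell cycle. Capitals mark the seed, bases 2 to 8.
let-7a-5p: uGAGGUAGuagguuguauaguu
let-7d-5p: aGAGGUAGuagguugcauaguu
let-7e-5p: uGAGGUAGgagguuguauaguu
let-7f-5p: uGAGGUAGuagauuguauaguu
let-7g-5p: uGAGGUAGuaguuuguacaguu
miR-15b-5p: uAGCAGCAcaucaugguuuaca
miR-16-5p: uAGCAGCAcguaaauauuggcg
miR-195a-5p: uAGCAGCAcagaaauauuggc
miR-497a-5p: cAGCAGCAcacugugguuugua
All let-7 sequences shown share the seed GAGGUAG, and the other 4 share AGCAGCA. The let-7a-1, let-7f-1 and let-7d hairpins shared 1 domain of 11459 bp at chr13:48534381-48545839, which touched no protein-coding gene. Its fold enrichment was 8.872 and its −log10 q of 51.65 was among the 8 highest of all mid-width domains. The let-7e and miR-125a hairpins lay in a domain over Has1 and Spaca6 (fold enrichment 4.646), and let-7g lay in 1 over Wdr82 (5.029). The miR-15b and miR-16-2 hairpins lay in a domain at chr3:69005216-69014986 in Smc4, a condensin subunit (5.011), and miR-195a and miR-497 in 1 over 0610010K14Rik (2.925). No EPZ5676 peak overlapped any of these domains. Across all 52 domains with a hairpin, 8 were overlapped by an EPZ5676 peak, a share close to the 16.73% of all mid-width domains.

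Almost all mid-width domains overlapped a protein-coding gene. Of the 6329 domains, 6165 (97.41%) did so by at least 1 bp of the gene span, and 5822 of these overlapped a single such gene. The share was 89.27% of all autosomal control peaks, 89.71% of peaks of 1 to 5 kb and 99.05% of peaks over 20 kb. In all, 4807 protein-coding genes held at least part of a mid-width domain, or 23.3% of the 20665 autosomal protein-coding genes. A single domain was found in 3800 genes, 2 in 602, 3 in 203, 4 in 116 and 5 or more in 86. Genes with a domain had a median length of 33429 bp, against 17491 bp for all autosomal protein-coding genes.

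The domains covered a median of 30.06% of the gene span, with quartiles of 16.27% and 51.01%. Together with all other control peaks in the same genes, the median cover was 43.97%. Coverage was 80% or more in 326 genes and under 20% in 1552. In 4216 of the genes no control peak was wider than the domain. The other 591 also held a peak over 20 kb, and there the mid-width domains covered a median of 13.18% of the span. Since the rule limits a domain to 20 kb, its share of a longer gene is bound to be smaller, and the values by gene length are given as a description. The median was 77.53% in genes of up to 10 kb, 34.77% in genes of 20 to 40 kb and 7.984% in genes over 160 kb. All control peaks together covered 79.02%, 42.71% and 25.14% of the same genes.

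**Figure D1:**
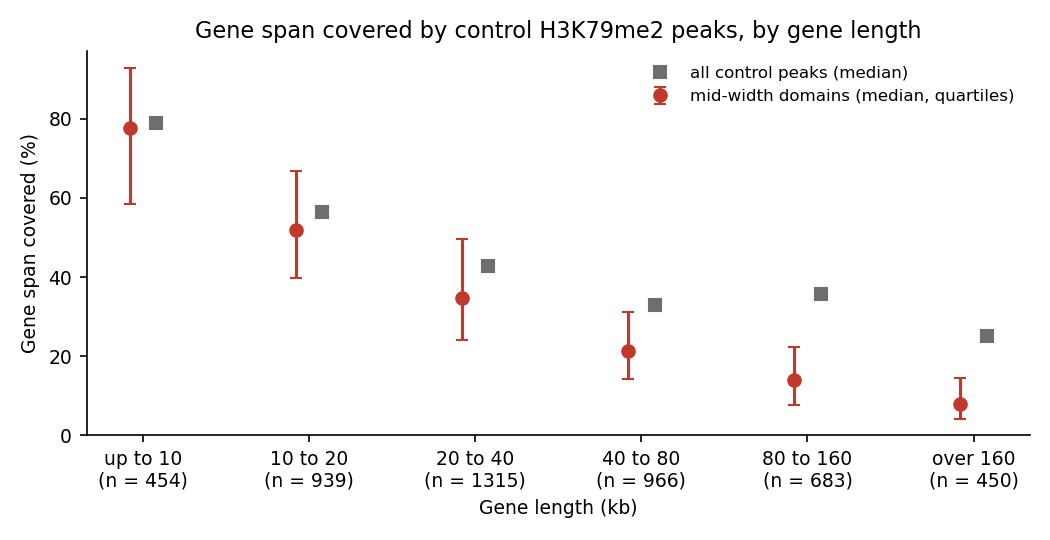
Share of the gene span (y axis, %) covered by mid-width domains (red, median with quartiles) and by all control peaks (grey, median), in genes with a mid-width domain by gene length (x axis, kb). The width limit of the rule bounds the red values, which reach 7.984% in genes over 160 kb, where all control peaks cover 25.14%.

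Some genes were covered nearly from end to end. A single domain covered 90% or more of the gene in 86 cases, 1.477% of the 5822 single-gene domains, and these genes had a median length of 8718 bp. The longest was Rest, which encodes a repressor of neuronal genes outside neurons. Its domain of 19264 bp covered 92% of a gene of 20939 bp, with a fold enrichment of 4.12 and no EPZ5676 peak. Sem1, which encodes a small subunit of the proteasome lid, had 90.31% of its span covered by a domain of fold enrichment 4.855. On that domain lay 3 EPZ5676 peaks over 2378 bp. Foxo6, a forkhead transcription factor gene, had 90.56% of its span covered (fold enrichment 3.425), without an EPZ5676 peak.

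The genes with the most mid-width domains were long, and most of them also held wider control peaks. Aff3, of the AFF family of elongation factors, held 15 mid-width domains that together covered 151782 bp, or 33.37% of its span, and no EPZ5676 peak. Magi1, a junctional scaffold gene, held 14 domains over 123182 bp, and 3 EPZ5676 peaks lay in the gene but in none of these domains. Foxp1 (a forkhead factor), Lpp (a focal adhesion protein) and Zdhhc14 (a palmitoyltransferase) held 11 each, and Tiam1 (an activator of Rac) held 10. The widest control peak was 74281 bp in Magi1, 49932 bp in Lpp, 31351 bp in Tiam1, 28210 bp in Aff3 and 21111 bp in Foxp1, and 19378 bp in Zdhhc14, itself a mid-width domain. Lpp had 12 EPZ5676 peaks and 5 of its 11 domains were overlapped, whereas Zdhhc14 had none. The control peaks were closely spaced: the gap from a mid-width domain to the nearest other control peak had a median of 778 bp, and 3899 domains (61.61%) had a neighbour within 1 kb. When control peaks closer than 1 kb were joined, 1580 domains (24.96%) became part of a peak over 20 kb.

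Some domains touched more than 1 gene. Exactly 2 protein-coding genes were overlapped by 316 domains, and for 239 of them both strands were known. The pair was divergent in 154, convergent in 38 and on the same strand in 47. A further 4 domains lay in the gamma-protocadherin cluster on chromosome 18, whose many alternative first exons make genes overlap, and each of them touched 21 to 24 annotated genes. Their fold enrichment was between 2.589 and 2.889.

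The domains began close behind the gene start. A start was known for 4734 of the single-gene domains, none of them on chromosome 18, whose 189 domains are left out of all results on position and promoters, and the 5′ edge of the domain lay a median of 516 bp after it. The distances were widely spread, with quartiles of 177 and 17593 bp. The edge lay 0 to 1 kb after the start in 2273 domains (48.01%, exact 95% Clopper-Pearson interval 46.58 to 49.45%). Among all autosomal control peaks in 1 gene with a start, the share was 18.8%. It was 21.82% of peaks of 1 to 5 kb and 66.72% of peaks over 20 kb. The start itself lay inside the domain in 10.27% (9.416 to 11.17%) of the 4734. These intervals cover counting error only and treat peaks as independent, which neighbouring peaks are not. Within the 2273, the median distance was 311 bp with quartiles of 170 and 481 bp.

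**Figure D2:**
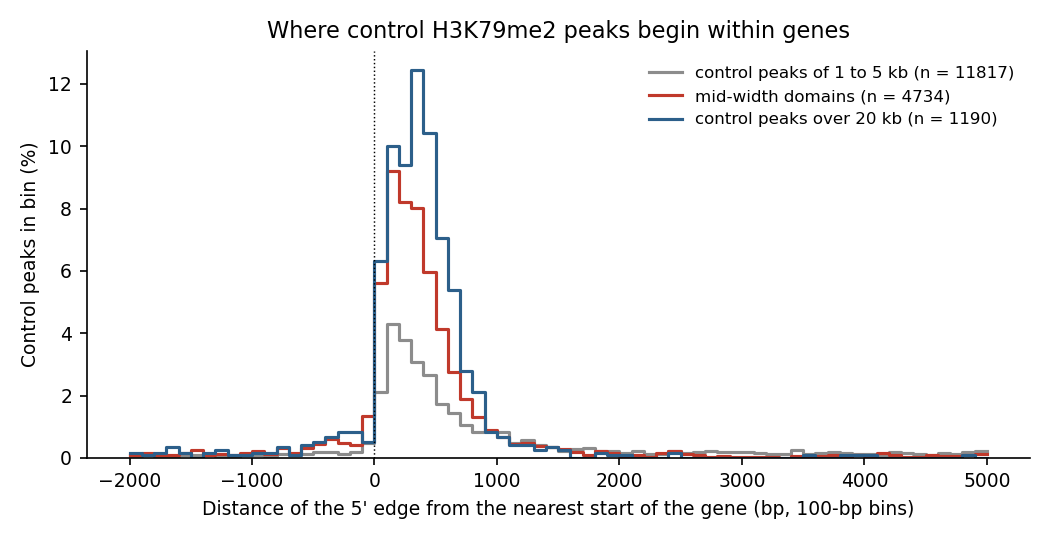
Distance of the 5′ edge of control peaks from the nearest start of their gene (x axis, bp, in 100-bp bins) against the share of peaks in each bin (y axis, %), for peaks of 1 to 5 kb, mid-width domains and peaks over 20 kb. Mid-width domains were most frequent in the bin from 100 to 200 bp after the start, which held 9.21% of them.

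The position went with the enrichment. The median fold enrichment was 4.122 for the 2273 domains that began 0 to 1 kb after the start and 3.533 for the 581 that began before it. It was 2.848 for the 259 that began 1 to 5 kb after it. For the 1621 domains that began 5 kb or more after the start, at a median of 32799 bp, it was 2.618. Distances are to the nearest start, so a domain before such a start can lie inside the gene, as in Ccnd3 (-37979 bp). Of the 581, only 376 (64.72%) contained a protein-coding gene start, and their median distance was -2609 bp. The 581 are therefore a mixed class. With the domains split into 4 groups of equal size by fold enrichment, from lowest to highest, the share that began 0 to 1 kb after the start was 8.785%, 33.81%, 70.61% and 80.32%.

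In genes of up to 10 kb, 39 of the 135 domains that began 0 to 1 kb after the start ran past the annotated gene end. The count was 11 of 507 in genes of 10 to 20 kb and 1 of 775 in genes of 20 to 40 kb.

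The promoters of these 2273 domains were rich in CpG. Their median CpG count in 250 bases was 19, against 10 for the 20085 promoters of all protein-coding starts used and 3 for 8484 promoters of genes without a control peak. Median GC content was 63.2%, 56% and 49.2% in the same order. A GC box occurred in 71.14% of the promoters of these domains and in 43.38% of all promoters. The ETS core occurred in 7.259% and 3.883%, and the E-box in 10.47% and 6.692%. The TATA box (TATAAA) went the other way, with 4.619% and 11.71%. The CCAAT box occurred in 39.64% and 35.28%. All promoters include those of genes without a control peak, of which 21.97% had a GC box and 19.71% a TATA box. Promoters of the other genes with a control peak were not counted apart. Whether these shares are particular to mid-width domains was therefore not tested. A match gives only the letters present in this window. Motif frequencies were not set against GC content, so its part in these shares was not tested.

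EPZ5676 peaks lay over 1059 of the 6329 mid-width domains, or 16.73% (15.82 to 17.68%), by at least 1 bp. The share was 8.453% when 500 bp had to be shared, and 1.801% when only EPZ5676 peaks with a −log10 q of at least 2 were counted. With the 1-bp overlap, the share among all autosomal control peaks was 6.62%. It was 4.579% for peaks of 1 to 5 kb and 52.7% for peaks over 20 kb. The remaining 5270 domains had no EPZ5676 peak. Absence from a peak list is not a measured level: the lowest −log10 p listed was 2.364 for control peaks but 4.027 for EPZ5676 peaks, while the lowest −log10 q was close in both, 1.049 and 1.036.

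A wider target meets a short peak more often, and the share of bases is the measure that allows for this. EPZ5676 peaks covered 1.508% of the bases in mid-width domains (0.1259% with a −log10 q of at least 2), 1.323% in peaks of 1 to 5 kb and 2.397% in peaks over 20 kb. Within the mid-width domains, the overlapped share went from 8.148% at 5 to 6 kb to 32.49% at 15 to 20 kb, while the covered bases went from 1.072% to 1.853%. In the 4 fold enrichment groups, 9.987%, 10.87%, 13.08% and 32.98% of domains were overlapped. The covered bases in the same order were 1.55%, 0.9663%, 0.9344% and 2.459%, lowest in the 2 middle groups.

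**Figure D3:**
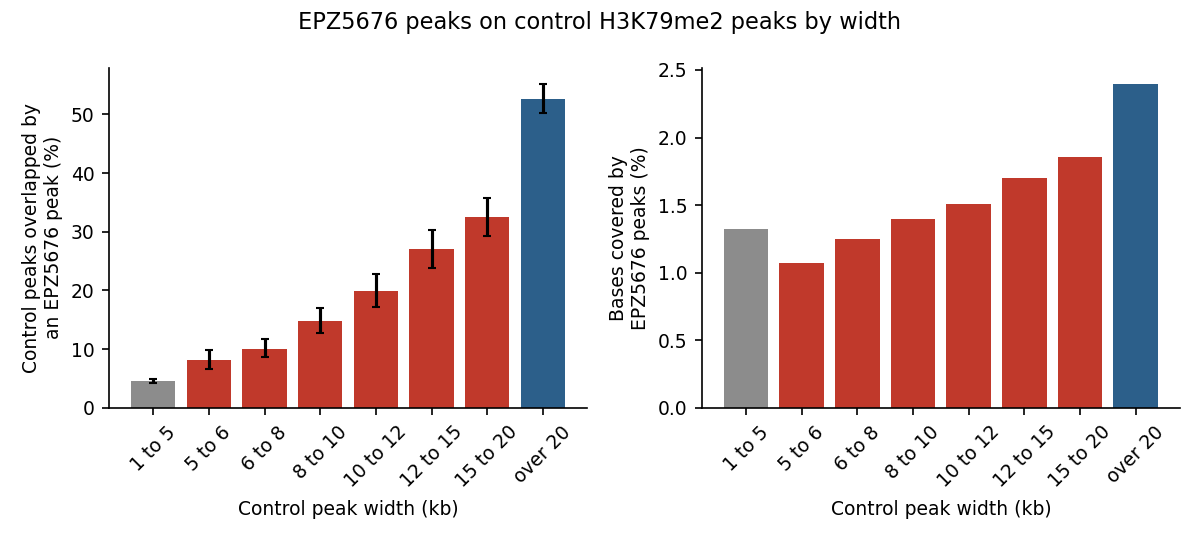
Control peaks by width (x axis, kb): share overlapped by an EPZ5676 peak by at least 1 bp (left, %, with exact 95% intervals) and share of bases covered by EPZ5676 peaks (right, %). Mid-width classes are red, and both shares go up across them, from 8.148% to 32.49% of domains and from 1.072% to 1.853% of bases.

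Where EPZ5676 peaks were present they were short. A total of 1580 EPZ5676 peaks, 17.21% of that list, overlapped a mid-width domain and 1570 of them lay wholly inside. Their median width was 446 bp, against 402 bp for the whole list, and the highest −log10 q among them was 3.158. A single EPZ5676 peak lay on 715 of the domains, 2 on 212, 3 on 95, 4 on 29 and 5 on 8. An overlapped domain had a median of 560 bp covered, or 5.48% of its width. Overlapped domains had a median width of 11169 bp and a median control fold enrichment of 4.364, against 8110 bp and 3.153 for the others. By chromosome, the overlapped share was between 11.21% on chromosome 6 and 21.69% on chromosome 18.

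The overlap also differed by the position of the domain in its gene. EPZ5676 peaks overlapped 22.66% of domains that began 0 to 1 kb after the start and covered 1.866% of their bases. Both values were highest in the 259 domains that began 1 to 5 kb after it, 26.25% and 3.178%. They were 12.91% and 1.204% in the 581 that began before the nearest start, a mixed class in which 376 contained a start. In those that began 5 kb or more after it they were 8.945% and 0.6987%, so there was no steady decline with distance after the start. For those of 10 to 20 kb the covered bases were 2.197% in start-adjacent and 0.6949% in internal domains, and for those of 5 to 10 kb they were 1.395% and 0.7021%. Fold enrichment moved with position. Within the 4 fold enrichment groups, from lowest to highest, covered bases were 2.899%, 0.9926%, 0.995% and 2.731% in start-adjacent domains. The 2.899% came from 14 overlapped domains of 107, among them those of Zbed3 (5154 bp) and Itprip (5094 bp). In internal domains the covered bases were 0.7172%, 0.6199%, 0.5913% and 1.873%, the last from 32 domains. With control peaks closer than 1 kb joined, the gap in covered bases was smaller, 1.495% against 1.097%.

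Along the start-adjacent domains, the EPZ5676 peaks were concentrated a few kb into the gene. They covered 0.479% of domain bases in the first kb after the start, 3.082% in the second and 4.024% from 2 to 3 kb. The share was then 3.682% from 3 to 4 kb, 2.301% from 4 to 5 kb and 0.7492% from 10 to 11 kb. In the group of highest fold enrichment (963 domains) the share from 2 to 3 kb was 6.666%. In the lowest group (107 domains, of which only 14 were overlapped) it was 5.177%.

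**Figure D4:**
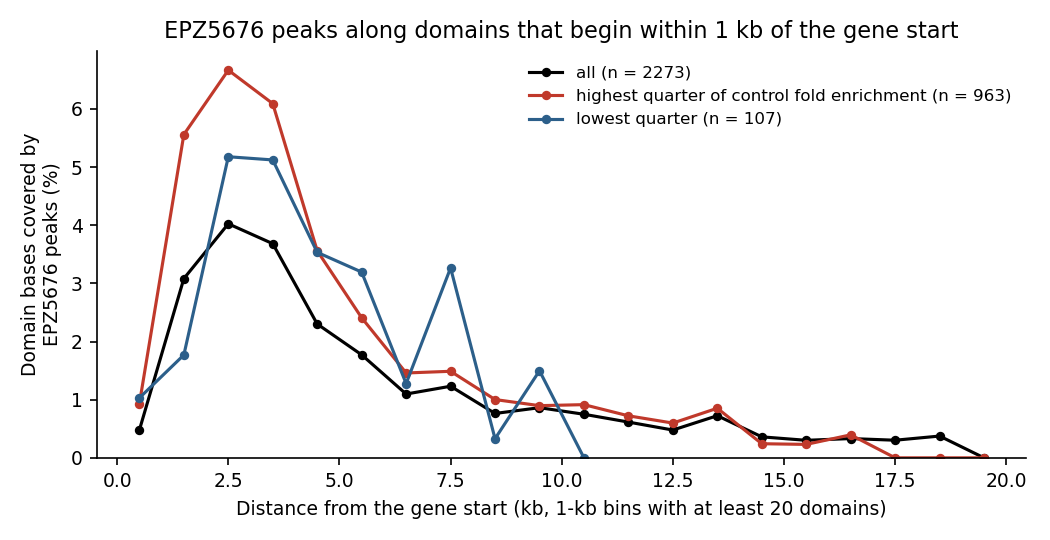
Share of domain bases covered by EPZ5676 peaks (y axis, %) by distance from the gene start (x axis, kb, 1-kb bins with at least 20 domains), for domains that begin 0 to 1 kb after the start: all 2273, the 963 in the highest of the 4 groups by control fold enrichment and the 107 in the lowest. All 3 lines have their highest point from 2 to 3 kb. Only 14 of the 107 domains in the lowest group were overlapped.

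The 8 domains of highest −log10 q had at most 19.86% of their width under EPZ5676 peaks. Dot1l, the gene of the inhibited enzyme, carried a domain of 13135 bp at chr10:80755600-80768734. It began 397 bp after the start, covered 32.54% of the gene and was enriched 9.056-fold, and a single EPZ5676 peak lay on it over 855 bp. The domain with the highest −log10 q, 61.18, lay in Rnf126, a ubiquitin ligase gene, at chr10:79761326-79766777, with 1083 bp under an EPZ5676 peak. Fbl, which encodes the nucleolar RNA methyltransferase fibrillarin, had 76.55% of its span in the domain and 566 bp under EPZ5676 peaks. Pip5k1c, a phosphoinositide kinase gene, had 1264 bp, and Zfp787, a zinc finger gene, had 1320 bp. Smad4, the shared mediator of TGF-beta signals, had 1766 bp under 4 EPZ5676 peaks.

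Other strongly enriched domains had no EPZ5676 peak. That of Cct5, a subunit of the cytosolic chaperonin, lay at chr15:31594342-31601780 with a fold enrichment of 8.954. Psmd12, of the proteasome regulatory particle, had 8.537, and Sf3b1, of the splicing factor that recognises the branch point, had 8.388. Ppp2r5a, a regulatory subunit of protein phosphatase 2A, had 8.548. The lowest fold enrichments were 2.083 in Btbd9, 2.133 in Xxylt1, a xylosyltransferase gene, and 2.147 in Irs1, the insulin receptor substrate. The Irs1 domain had 3 EPZ5676 peaks over 2051 bp.

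In a small set, EPZ5676 peaks covered much of the domain, and these domains were weak in control cells. Of the 1059 overlapped domains, 484 were covered by less than 5% and 20 by 40% or more. The median control fold enrichment was 4.46 in the former and 2.481 in the latter, whose highest value was 3.109. The genes of the 20 are named because of these values. The long noncoding RNA gene Morrbid had the highest share, 76.83%, followed by Itprip with 75.51% (5094 bp). Parva, a focal adhesion gene, had the largest cover in bases, 11829 bp under 4 EPZ5676 peaks, or 67.03% of a domain at chr7:112434799-112452445. Zbed3 had 63.05% (5154 bp). Next came Ddr2, a collagen receptor (57.66%), Farp1 (57.61%), a domain in no annotated gene on chromosome 15 (56.47%), Map6, a microtubule-associated protein (53.32%), Egfr, the epidermal growth factor receptor (51.93%), and Frmd4a (51.09%). The other 10 domains, with 41.38% to 49.74%, lay in Pvt1 (2 domains), Antxr1, Nedd9, Gsn, Osbpl5, Pakap, Prrx2, Amotl1 and Septin8. Outside these 20, Lrrfip1, at the upper width limit, had 4897 bp covered, or 24.51%.

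Genes expressed by fibroblasts were counted beside these because the cells grew on feeders. Of 21 feeder fibroblast markers on the autosomes, 3 had a mid-width domain, 8 had no control peak of any width and 6 had an EPZ5676 peak. Fbn1 (fibrillin) had a domain of fold enrichment 2.284 with 1548 bp under EPZ5676 peaks. Twist2 (a mesenchymal transcription factor) had 2.23 with 836 bp. Col5a1 (a collagen chain) had 2.277 with none in its mid-width domain, but 6 EPZ5676 peaks over 4191 bp elsewhere in the gene. None of the 20 markers of testis somatic cells and none of the 21 genes of unrelated tissues had a mid-width domain. The part of feeder chromatin in the heavily covered domains was not tested.

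Gene groups differed in how often they carried a mid-width domain, beside the 23.3% of all autosomal protein-coding genes. The lists also differ in gene length, whose part in these counts was not tested. The median length was 3310 bp for the ribosomal protein genes and 58809 bp for the chromatin remodellers. EPZ5676 peaks lay on a mid-width domain of 21.2% of all genes with such a domain, and anywhere in the gene in 27.04%. Of genes with a control peak of any width, 19.9% had an EPZ5676 peak anywhere in the gene. Where a gene held several domains, the fold enrichment below is that of the domain with the highest −log10 q. As a check of the labelled cell type, 6 of 26 genes of undifferentiated spermatogonia had no control peak of any width, against 14 of 20 testis somatic cell markers and 19 of 21 genes of unrelated tissues. Of the feeder fibroblast markers, however, only 8 of 21 lacked a control peak, so this check does not set the germ cells apart from the feeders.

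**Figure D5:**
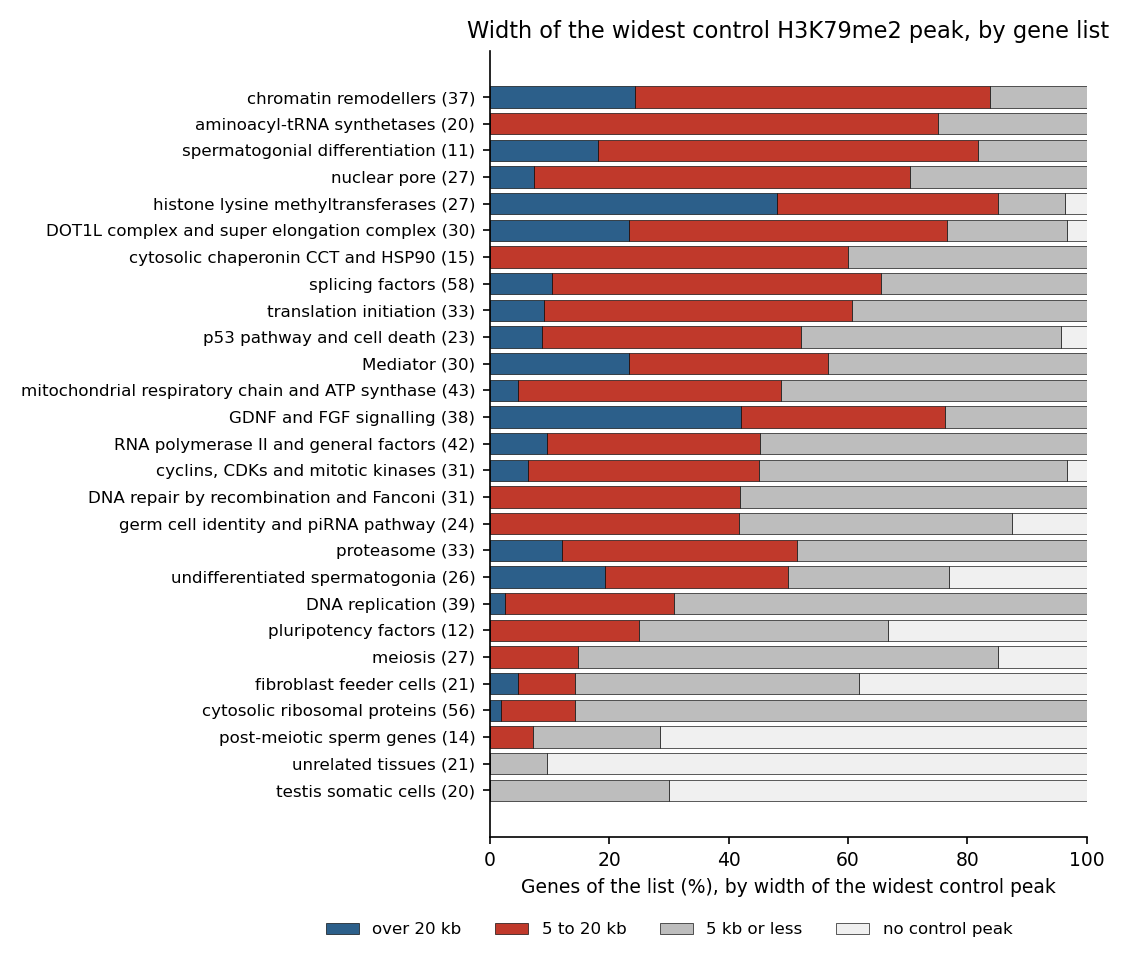
Genes of each list (number matched in brackets) by the width of their widest control H3K79me2 peak (x axis, % of the list). Red marks genes whose widest peak is a mid-width domain, 15 of 20 aminoacyl-tRNA synthetases and 7 of 56 ribosomal protein genes.

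Among the genes of undifferentiated spermatogonia, 9 of 26 had a mid-width domain and none of these domains had an EPZ5676 peak. In the whole list, 4 of the 26 genes had an EPZ5676 peak, and the widest control peak was over 20 kb in 5. Taf4b, a germ cell subunit of the TFIID complex, had the highest fold enrichment of the 9, 7.063. Ret, the signalling receptor for GDNF, followed with 6.796 and 2 domains that covered 32.46% of the gene. Nanos3 (5.131), a gene of 2820 bp, lay wholly in a domain of 15565 bp that also overlapped 4930432K21Rik. Lin28a (4.502), which blocks let-7 maturation, and Sall4 (4.487) had 68.98% and 61.52% covered. Gfra1, the GDNF co-receptor, had 4 domains (3.133) and also a peak of 24365 bp.

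Of the genes of spermatogonial differentiation, 8 of 11 had a domain. The fold enrichment was 4.829 in Rarg, a retinoic acid receptor, 2.75 in Kit and 2.73 in Stra8. Dnmt3a, a DNA methyltransferase, was the only member with an EPZ5676 peak in a mid-width domain, over 152 bp. Of the germ cell identity and piRNA genes, 10 of 24 had a domain, again with no EPZ5676 peak, with Tex15 (5.253) and Dazl (4.702) the highest by fold enrichment. Of the meiosis genes 4 of 27 had one, Syce1 of the synaptonemal complex the strongest at 5.992. Of the sperm genes used after meiosis, 1 of 14 did, Zpbp at 2.683.

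In the DOT1L and elongation group, 18 of 30 genes had a domain, and in 8 of the 18 an EPZ5676 peak lay on it. Beside Dot1l these were Nelfa (147 bp) of the negative elongation factor, Supt6 (344 bp), Ccnt1 (444 bp), Aff4 (232 bp), Aff1 (819 bp), Mllt3 (493 bp) and Ell2 (425 bp). Ccnt1 is the cyclin of the elongation kinase, Mllt3 encodes AF9, and Aff1, Aff4 and Ell2 belong to the super elongation complex. Supt5, a subunit of the elongation factor DSIF, had a fold enrichment of 6.47 and no EPZ5676 peak. Of the histone lysine methyltransferases 17 of 27 had a domain, led by Kmt2d (6.516). None of these domains had an EPZ5676 peak, but 9 of the 27 genes had one elsewhere in their span. The widest control peak was over 20 kb in 13 of the 27.

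In the GDNF and FGF signalling group, 17 of 38 genes had a domain, and in 5 of them an EPZ5676 peak lay on it. Map2k1, a MAP kinase kinase, had 6.129 and none. Braf (459 bp), Akt1 (287 bp) and Pik3r1 (493 bp) had EPZ5676 peaks on theirs. The widest control peak was over 20 kb in 16 of the 38, and 21 of the 38 had an EPZ5676 peak anywhere in the gene. Of the cell cycle genes 13 of 31 had a domain, Mki67 at 5.824 with 932 bp and Cdk1 at 5.234 with 848 bp under EPZ5676 peaks. Of the p53 pathway genes 11 of 23 did. Trp53 had 5.333 and no EPZ5676 peak, whereas Zmat3, a p53 target, had 4184 bp of its domains (2.885) under EPZ5676 peaks.

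In protein synthesis and folding the shares were unequal. Of the aminoacyl-tRNA synthetases 15 of 20 had a domain and 4 of these had an EPZ5676 peak on it, with Iars at 6.37 and Gars at 5.947. Of the chaperonin and HSP90 genes 9 of 15 had one, of the translation initiation genes 17 of 33, and of the proteasome genes 13 of 33. Eif3b (7.956, 1720 bp) and Eif4h (8.019, 949 bp) had EPZ5676 peaks on their domains, as did Cct7 (8.223, 931 bp) and Psma6 (6.414, 924 bp). Only 7 of 56 ribosomal protein genes had a domain, and 48 had a widest control peak of 5 kb or less. Rpl7a, at 2628 bp, lay in a domain of 17332 bp that covered 86.11% of it.

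Of the splicing factors, 33 of 58 had a domain, with a median of 64.03% of the gene covered. Ptbp1 (8.282) had no EPZ5676 peak, while Srsf4 (7.021) had 2940 bp and Snrpd1 (6.757) 1981 bp. Of the nuclear pore genes 18 of 27 had one, led by Nup153 (7.231, 969 bp) and Nup98 (7.222, 495 bp). Chromatin remodellers had the highest share, 28 of 37, with Baz2a at 6.929 and 285 bp and Arid1b with 6 domains. Lower shares were found for Mediator (14 of 30, Med25 at 5.692), RNA polymerase II and general factors (18 of 42, Polr2d at 5.907) and the respiratory chain (20 of 43, Cox5a at 7.558). For DNA replication 12 of 39 did, Orc4 the strongest at 6.009. For recombination repair 13 of 31 did, none with an EPZ5676 peak, with Blm at 4.853. The pluripotency list had 3 of 12, and 2 of these, Lin28a and Sall4, are also in the list for undifferentiated spermatogonia.

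Outside protein-coding genes, 164 mid-width domains remained. Of these, 111 touched a noncoding gene, 98 of them a long noncoding RNA gene, and 53 touched no annotated gene. EPZ5676 peaks lay on 13 of the 164 (7.927%), against 16.97% of mid-width domains in protein-coding genes. The covered bases went the other way, 2.123% outside and 1.494% inside such genes. The domains outside spanned only 1.288 Mb, and most of their covered bases lay in Pvt1 (14103 bp) and Morrbid (5693 bp). The domains outside were narrower, with a median of 7162 bp against 8607 bp. The lncRNA gene Pvt1, beside Myc, held 4 of these domains, with a fold enrichment of at most 2.627. All 4 were overlapped, over 14103 bp together. Morrbid held 2, both overlapped over 5693 bp. By contrast 2610307P16Rik held 5, Gm2164 held 4 and Dleu2 held 3, and none of those was overlapped. Gm2164 reached a fold enrichment of 5.461. The miR-183, miR-96 and miR-182 hairpins lay in a domain at chr6:30165498-30174441 with 3.884 and no EPZ5676 peak.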

How the data were processed

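The authors deposited 1 H3K79me2 peak list per condition, with 9 columns used here. The lists have no header; by their layout and values, each deposited peak carries a score, which equals the whole part of 10 times −log10 q (4 exceptions in the control list, 0 in the EPZ5676 list), a fold enrichment (ratio), −log10 p and −log10 q. The mm10 build and the tools deepTools, Trimmomatic and bcl2fastq 2.20.0.422 are named per the submitters' processing notes. For 4 further matters (aligner, peak caller, use of inputs, pooling of samples) the answer was not given in the sources used here. Sequencing depth is unknown, so no depth-based interval is given.

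Peaks on chromosomes 1 to 19 were compared with each other and with RefSeq gene spans of GRCm38.p6, by an overlap of at least 1 bp. Starts and strands came from the RefSeq promoter table, which gave a start for 16457 of 20665 autosomal protein-coding genes and for 3892 of the 4807 with a domain, so positions are over the 4734 single-gene domains with one. The nearest start was used where a gene had several. A gene span overlapping another gene can share a domain. Shares carry exact Clopper-Pearson 95% intervals. The overlap and joining steps were tested on simulated peaks, and the step that measures distance from the gene start was not. Python 3.11.15, pandas 2.3.3, numpy 2.4.6, scipy 1.17.1 and matplotlib 3.10.9 were used.

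The domains and gene lists were chosen with earlier results of these data known. Named domains were those with the highest −log10 q (8), the most EPZ5676 bases (6), the highest −log10 q without an EPZ5676 peak (5), the longest genes covered by at least 90% (3) and the lowest fold enrichment (3). Within lists, genes with the highest −log10 q and genes with EPZ5676 peaks were named, and others as stated. Of 798 list entries, 781 matched an autosomal gene.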

Additional observations from a re-analysis of the deposited data

How the results depend on the processing

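Of 53 values recomputed under other settings, 29 stayed within the counting interval of the main value, within 1.5 times the main count or, for medians and base shares, at the same value to 3 digits, and 24 moved. The overlapped share of domains was 8.453% for a shared length of at least 500 bp, 1.801% with EPZ5676 peaks of −log10 q of at least 2, and 15.17% with control peaks closer than 1 kb joined. The share of domain bases under EPZ5676 peaks was 0.1259% with that stricter EPZ5676 list and 1.5% with control peaks of −log10 q of at least 2. It was 1.498% with control peaks held to the lowest −log10 p of the EPZ5676 list, 1.424% with joined peaks, 1.6% for limits of 4000 and 25000 bp and 1.456% for 6000 and 15000 bp. The share of genes with a domain that had an EPZ5676 peak, 27.04% as counted, was 4.181% with the stricter list and 22.51% with joined peaks. When the middle of the domain had to lie in the gene, this share was 28.57%. Counting EPZ5676 peaks on a mid-width domain of the gene, even where they lay outside the gene span, gave 21.2%. The median gene cover was 30.25% at the shared −log10 p, 32.28% joined, 31.81% and 26.91% for the wider and narrower limits, and 30.24% for genes overlapping no other. The share of domains with a start inside was 16.5% joined, 56.82% within 1 kb and 6.706% in genes with 1 start. The share beginning 0 to 1 kb after the start was 50.99% at the shared −log10 p, 43.09% joined and 51.78% in genes with 1 start. That share and the setting of genes with 1 start were chosen after seeing the data. The cause of these shifts was not tested. With the stricter EPZ5676 list, start-adjacent domains still had the higher share, 2.288% against 1.172% of internal domains, from 52 and 19 domains. No sample could be left out in turn, and no paired value exists. No paired analysis was possible because only 1 peak list per condition was used and no per-sample values entered a test.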
